A study of Mus musculus with 6 samples.

Results

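The protein folding machinery of blood leukocytes was followed through 10 chaperone genes, namely Hsph1, Hspa1a, Hspa1b, Hspa8, Hsp90aa1, Dnaja1, Dnajb1, Hspd1, Hspe1 and Hspa5 in a mouse model of type 2 diabetes. They were chosen by gene symbol, as 10 of the 31253 genes counted, and all 10 carried the identifier that the reference annotation gives to the same symbol. Single-cell RNA profiles came from 6 libraries of male mice aged 12 to 13 weeks. In 3 libraries (Con) the mice had been injected intraperitoneally with saline, and in 3 (T2D) with streptozotocin (STZ), a toxin of insulin-producing beta cells. The study title names the model HFD/STZ, HFD being a high-fat diet. The labels used here state neither the diet of the Con mice nor how many mice stand behind a library, so the p-values below measure the spread between libraries, which may be technical.

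Chaperones bind unfolded or newly made proteins and keep them from aggregating. In the cytosol, HSP70 proteins (Hspa8 in resting cells, Hspa1a and Hspa1b after stress) hold and release their clients in cycles of ATP hydrolysis, J-domain proteins (Dnaja1, Dnajb1) deliver the clients and start hydrolysis, HSP110 (Hsph1) exchanges the nucleotide, and HSP90 (Hsp90aa1) matures kinases and steroid receptors. Hspd1 and Hspe1 form the barrel and lid of the mitochondrial chaperonin, and Hspa5, also called BiP, is the HSP70 of the endoplasmic reticulum. The transcription factor HSF1 switches on the cytosolic and mitochondrial genes after heat or misfolding by binding heat shock elements, and the unfolded protein response acts on Hspa5 through endoplasmic reticulum stress elements. In blood, antibody-secreting cells are known for a large endoplasmic reticulum rich in Hspa5.

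Of the 10 genes, 8 had promoter windows in the RefSeq table (250 bases before to 50 after a start site, build GRCm38.p6), 13 windows in all. Hspa8 and Hsp90aa1 had none. The windows of 3 genes are shown because they hold the full element of one or the other stress pathway, with matches in capitals. For Hsph1 (chr5:149636287-149636586, minus strand) and Hspe1 (chr1:55087898-55088197, plus strand), the capitals mark matches to the heat shock element, searched on both strands. Its short form has 2 units, TTCNNGAA or GAANNTTC, and its long form has 3 units in turn, GAANNTTC followed by NNGAA, so that the short form lies within it. For Hspa5 (chr2:34771840-34772139, plus strand) they mark the endoplasmic reticulum stress element, which is CCAAT and CCACG with 9 bases of any kind between, searched on both strands, so that it contains a CCAAT box (37.4% of all windows).
Hsph1: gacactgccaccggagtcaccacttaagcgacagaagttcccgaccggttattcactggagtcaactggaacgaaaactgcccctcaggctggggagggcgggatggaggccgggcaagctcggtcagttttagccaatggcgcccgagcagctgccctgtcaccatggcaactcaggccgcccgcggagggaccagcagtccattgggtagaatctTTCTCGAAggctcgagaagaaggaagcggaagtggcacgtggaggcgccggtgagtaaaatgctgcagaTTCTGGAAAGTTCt
Hspe1: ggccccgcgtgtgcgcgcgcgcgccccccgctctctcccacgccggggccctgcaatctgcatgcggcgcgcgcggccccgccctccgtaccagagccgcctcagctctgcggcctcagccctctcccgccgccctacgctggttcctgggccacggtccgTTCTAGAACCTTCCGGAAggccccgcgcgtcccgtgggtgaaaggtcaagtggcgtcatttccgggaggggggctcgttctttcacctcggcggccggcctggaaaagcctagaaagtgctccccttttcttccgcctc
Hspa5: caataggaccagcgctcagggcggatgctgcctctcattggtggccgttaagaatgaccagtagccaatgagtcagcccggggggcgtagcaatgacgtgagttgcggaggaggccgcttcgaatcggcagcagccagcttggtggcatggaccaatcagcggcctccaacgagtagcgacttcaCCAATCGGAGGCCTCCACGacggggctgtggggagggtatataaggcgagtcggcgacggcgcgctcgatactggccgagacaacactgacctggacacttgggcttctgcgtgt
The element with 3 units was present in 0.603% of the 32851 windows of the table, and among the chaperone genes in Hsph1, Hspe1 and Hspd1. Hspd1 and Hspe1 lie head to head on opposite strands of chromosome 1 with start sites 111 bases apart and overlapping ends. The match upstream of Hspe1, from 89 bases before its start, is the same stretch of DNA as that of Hspd1. Hspd1 had 2 windows, and the match was in window 2 only, from 144 bases before the start site of that window. Window 1, at the Hspd1 start site used for the 111 bases, held no heat shock element, and the match lies downstream of that start site. The match of Hsph1 lay downstream of its start site, from 36 bases after it, at the far end of the sequence shown. The shorter form, in 15.1% of all windows, was also found in Dnaja1, Hspa1a and Hspa1b. The endoplasmic reticulum stress element was in 0.119% of all windows and, among the chaperone genes, in Hspa5 alone, 65 bases before its start. These matches describe letters in a window and were not tested for binding.

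The libraries held 7404 to 9112 cell barcodes and 23574052 to 32321855 UMIs (unique molecular identifiers, each counting 1 captured RNA molecule). Of 49407 barcodes, 49025 passed the limits on gene number and mitochondrial share, and 46035 of these (93.9%) were assigned to a cell type by fixed lists of marker genes. Across library pairs, 65 to 89 barcode sequences were shared, and 1127 occurred in more than 1 library. There were 26173 B cells, 6970 CD8 T cells, 5053 CD4 T cells, 1136 NK cells, 1115 neutrophils, 1057 non-classical and 974 classical monocytes, and these 7 types were tested. Antibody-secreting cells (106), basophils (111) and platelets (519) are described by their levels, and 13 eosinophils, 4 conventional and 3 plasmacytoid dendritic cells were too few for that. Levels are CPM values, which scale the UMIs of the gene to a fixed total of all UMIs of the type in a library. The mononuclear layer of a Ficoll gradient holds few granulocytes, so neutrophils and basophils were those left in that layer.

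Each chaperone gene had its own order of cell types, given here for the 3 Con libraries as CPM, mean ± SD. Hspa8, the constitutive HSP70, was highest in CD8 T cells (1040 ± 102) and classical monocytes (995.8 ± 88.0), followed by CD4 T cells (850.1 ± 79.8), non-classical monocytes (701.5 ± 98.4), basophils (633 ± 122), NK cells (625 ± 95.5) and B cells (523 ± 63.4). Each type in this order overlapped with the next in its library values. Neutrophils (299 ± 54.0) lay below B cells with no overlap. Hsp90aa1 was highest in CD4 T cells (390 ± 20.8), followed by platelets, CD8 T cells, NK cells and B cells (324 ± 19.97), each overlapping with the next. Below B cells, with no overlap, came non-classical monocytes (218 ± 16.8), then classical monocytes (158 ± 27.4) and neutrophils (95.5 ± 31.6). Hsph1 followed a like order, from 71.8 ± 16.1 in CD8 T cells through 49.2 ± 10.7 in CD4 T cells and 45.2 ± 9.47 in B cells to 17.8 ± 2.12 in classical monocytes and 3.13 ± 2.74 in neutrophils.

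The chaperonin genes were lymphocyte-weighted. Hspe1, the lid, stepped down from CD8 T cells (225 ± 17.8) to CD4 T cells (139.8 ± 11.8), B cells (105 ± 6.92) and NK cells (80.1 ± 2.41), with no overlap between these neighbours, and reached 14.5 ± 6.56 in neutrophils. Hspd1, the barrel, was 123.1 ± 28.5 in NK cells, 121 ± 5.70 in CD8 T cells, 99.3 ± 3.40 in CD4 T cells and 85.8 ± 1.498 in B cells, and NK cells overlapped with CD8 T cells. Of the J-domain genes, Dnaja1 was highest in basophils (313 ± 34.4), which did not overlap with CD4 T cells (266 ± 7.24), the next by mean, but overlapped with NK cells (260 ± 74.7), and CD8 T cells followed. Dnajb1 was at 716 ± 144 in basophils and 103 ± 3.83 in CD4 T cells, the next in order, with no overlap, on 154 and 767 UMIs over the 3 Con libraries. Hspa5 was highest in antibody-secreting cells (3551 ± 880), overlapping with basophils (2385 ± 690). Below them with no overlap came non-classical monocytes (1195 ± 40.0), neutrophils (1147 ± 186) and classical monocytes (1127 ± 61.5), which overlapped in turn. NK, CD4 T and B cells, also overlapping in turn, had means of 687 to 786, and CD8 T cells at 584 ± 31.1.

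**Figure D1:**
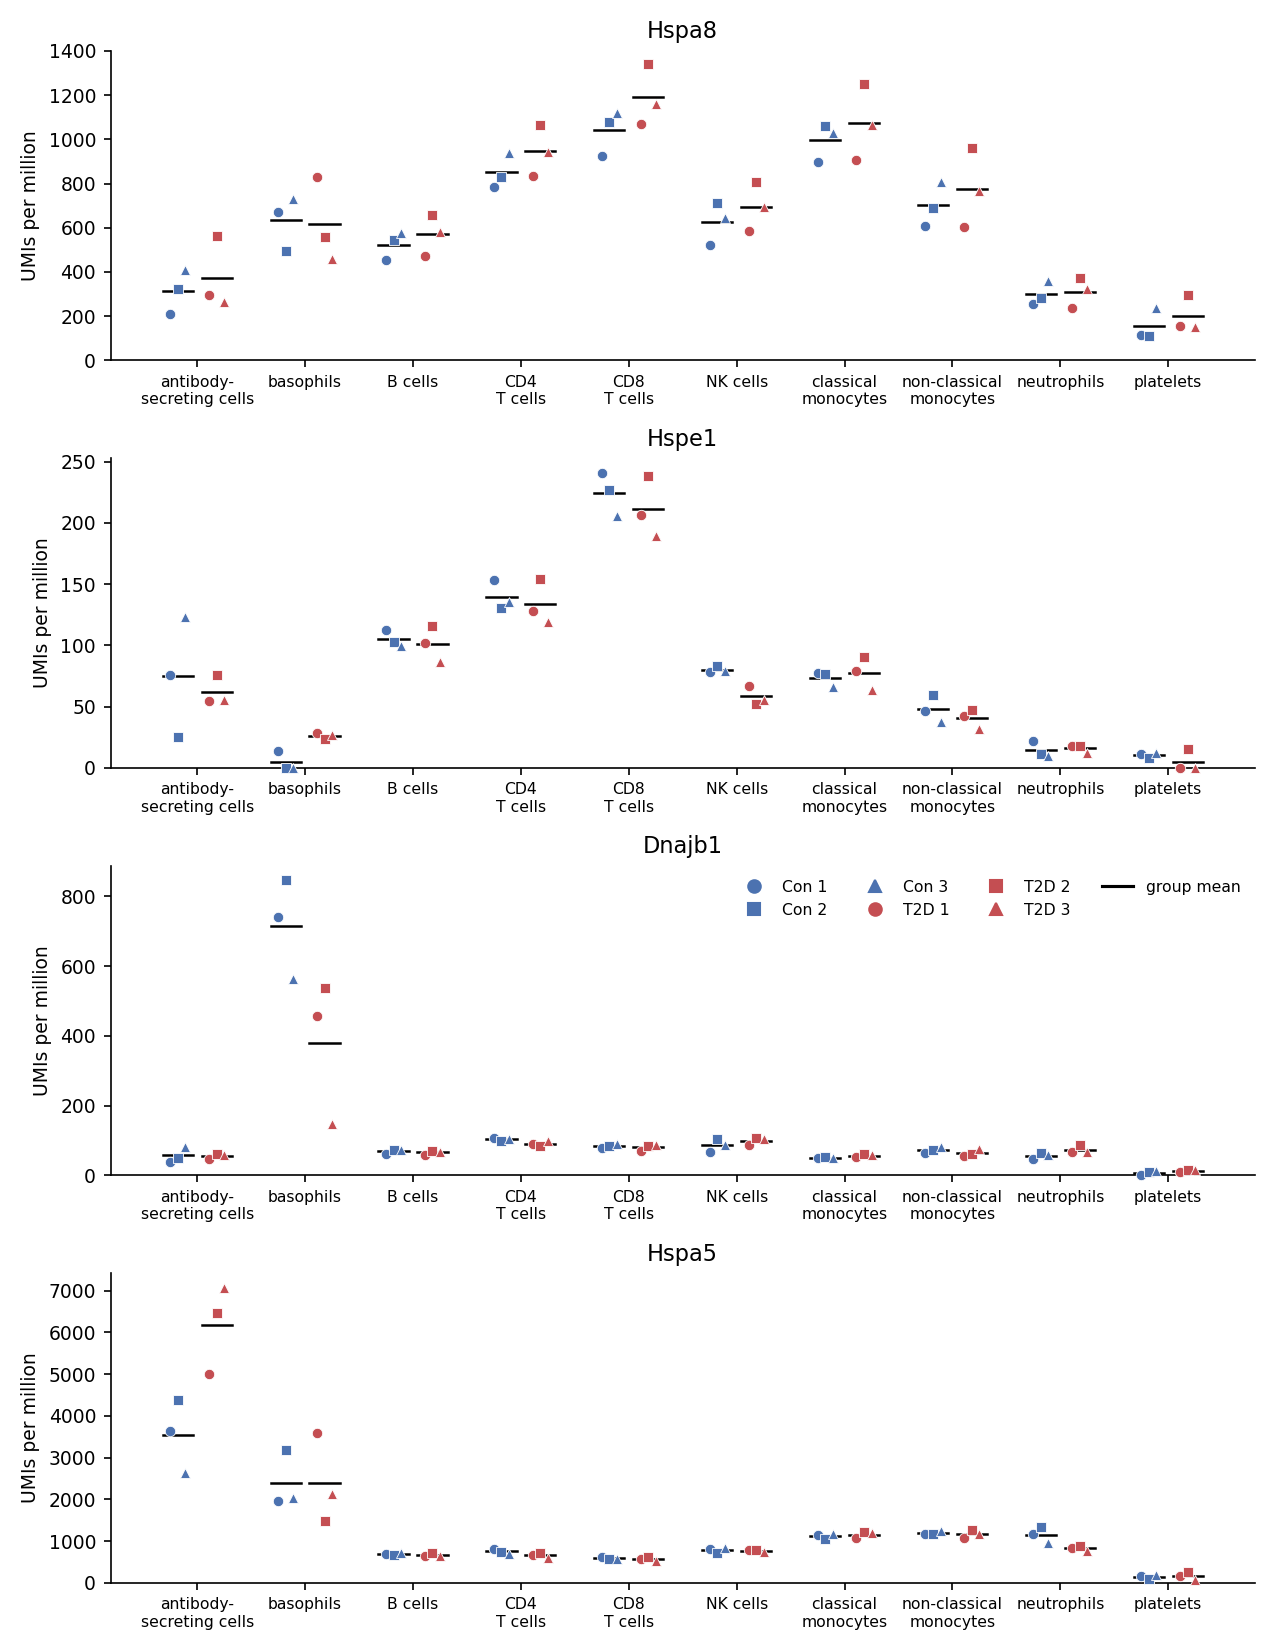
Level in CPM (vertical axes, from 0) of Hspa8, Hspe1, Dnajb1 and Hspa5 in 10 cell types. Each point is a library, with Con in blue, T2D in red and the shape giving the library number, and black bars are group means. Hspe1 steps down from CD8 T cells to NK cells, Dnajb1 stands out in basophils and Hspa5 in antibody-secreting cells and basophils.

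The stress-inducible pair was low throughout, and its Con means were highest in classical monocytes, where the Hspa1b range lay within that of neutrophils. Hspa1a reached 9.97 ± 3.02 CPM in classical monocytes of the Con libraries (31 UMIs) and Hspa1b 7.16 ± 0.82 (22 UMIs). In T2D, Hspa1b means were 11.5 ± 9.47 in classical and 11.5 ± 8.38 in non-classical monocytes. In B cells of Con, with the deepest sums, Hspa1a stood at 0.882 ± 0.435 and Hspa1b at 2.66 ± 0.52. No Hspa1a UMI was found in 2696 CD8 T cells of Con, which allows a share of up to 0.111% of cells with a UMI, nor in 378 Con and 758 T2D NK cells, which allows up to 0.794% and 0.396%. These limits cover counting error only and do not bound the share of cells that express the gene. The transcripts of the pair are 92.7% identical, and 62.3% over their last 300 bases, so UMIs could have been split between them. Hspa1a also overlaps the antisense gene Gm20481, and Dnaja1 the antisense gene Smu1. No source used here gives the strand setting of the counting.

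Over the 42 sums of 7 types and 6 libraries, the genes whose log2 CPM ran most like each chaperone gene were named among 6505 genes. For Hsph1 they were Exosc8 (Pearson r = 0.92), Stip1, the cochaperone that links HSP70 to HSP90 (0.91), and Hsp90aa1 (0.91). For Hsp90aa1 the first was Ddx39b (0.96), for Hspd1 Set (0.96), for Hspe1 Rpl41 (0.98), and for Hspa5 Cdkn1a (0.94) and Mapkapk2 (0.93). Hspa8 ran most like Atp5mpl (0.91) and Dnaja1 like Rnf125 (0.90), while the highest value for Dnajb1 was 0.81, with Ugcg. The sums share libraries and cell type differences, so these values are descriptions.

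Hsph1, the HSP110 gene, had the largest fitted log2 fold change of the members in each of the 6 types where it could be tested, all positive in T2D, but it did not pass the unpaired test of 3 against 3 libraries in any of them. Its level in CD4 T cells was 40.2, 46.5 and 60.9 CPM in Con 1, 2 and 3 and 63.2, 118.8 and 97.1 in T2D 1, 2 and 3. The T2D libraries all lay above the Con libraries, with T2D 1 just above Con 3. The fitted log2 fold change was 0.82 ± 0.31 (SE, n = 3 per group, adjusted p = 0.250 by edgeR's quasi-likelihood test).

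CD8 T cells held the most Hsph1, 57.1, 69.3 and 89.0 CPM in Con and 96.9, 158.7 and 118.5 in T2D, again with no overlap (log2 0.74 ± 0.28, edgeR adjusted p = 0.286). NK cells gave 38.1, 41.5 and 64.5 against 68.3, 106.6 and 82.3 (0.80 ± 0.24, edgeR adjusted p = 0.185). Classical monocytes gave 19.6, 18.4 and 15.5 against 22.4, 30.1 and 38.1 (0.74 ± 0.27, edgeR adjusted p = 0.331). In all of these types the groups stood apart, and the SD within T2D was larger than within Con.

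In B cells the groups overlapped, at 37.6, 42.1 and 55.8 CPM in Con and 46.8, 92.0 and 72.4 in T2D (0.62 ± 0.33, edgeR adjusted p = 0.481). Non-classical monocytes also overlapped, at 22.4, 42.6 and 28.0 against 36.4, 54.0 and 56.5 (0.90 ± 0.27, edgeR adjusted p = 0.156). Neutrophils held 6 Hsph1 UMIs in Con and 23 in T2D, too few for the test, and their groups did not overlap. The T2D mean was thus above the Con mean in 7 of 7 of these types, all measured in the same 6 libraries, and the sign was kept when any 1 library was left out of the 6 tested types (log2 0.36 to 1.08). Outside these types, the T2D mean was lower in platelets (53.2 CPM in Con, 38.2 in T2D, on 15 and 12 UMIs). It was higher in basophils and antibody-secreting cells. T cells with neither or both of the Cd4 and Cd8 markers overlapped, at 52.4 to 82.7 CPM in Con and 66.2 to 124.7 in T2D.

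The call of Hsph1 in CD4 T cells changed with the libraries kept. Without T2D 1 the log2 fold change there was 1.01 ± 0.15 with an edgeR adjusted p of 0.000294, and without both libraries numbered 1, a choice made after seeing the data, it was 0.89 ± 0.14 with 0.000184. Cell shares at equal depth separated the groups in CD8 and CD4 T cells and overlapped in the other types. With each cell thinned to 1000 UMIs, 4.55% to 7.13% of Con CD8 T cells and 8.68% to 14.3% of T2D CD8 T cells had an Hsph1 UMI, leaving out 46 and 98 shallower cells, and 3.48% to 4.90% against 5.84% to 10.5% of CD4 T cells (17 and 52 left out). The thinned shares were 3.41% to 5.09% against 4.19% to 8.25% in B cells, 2.68% to 7.03% against 4.48% to 6.91% in NK cells, 0.935% to 3.09% against 0.820% to 4.42% in classical monocytes and 0.813% to 6.67% against 4.87% to 5.80% in non-classical monocytes. The cells left out in Con and T2D were 513 and 486 B cells, 19 and 37 NK cells, 38 and 52 classical and 24 and 28 non-classical monocytes. Unthinned shares were 19.4% to 29.2% against 27.5% to 43.3% in CD8 T cells and 11.3% to 17.6% against 17.6% to 30.8% in CD4 T cells. Neutrophils, where the gene was near 0, had thinned shares of 0% in Con and 0% to 0.602% in T2D, and unthinned shares of 0% to 1.39% and 2.19% to 2.80%. Median UMIs per cell were 3951 to 4727 in CD8 T cells, 3446 to 3739 in CD4 T cells and 2324 to 2494.5 in neutrophils.

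**Figure D2:**
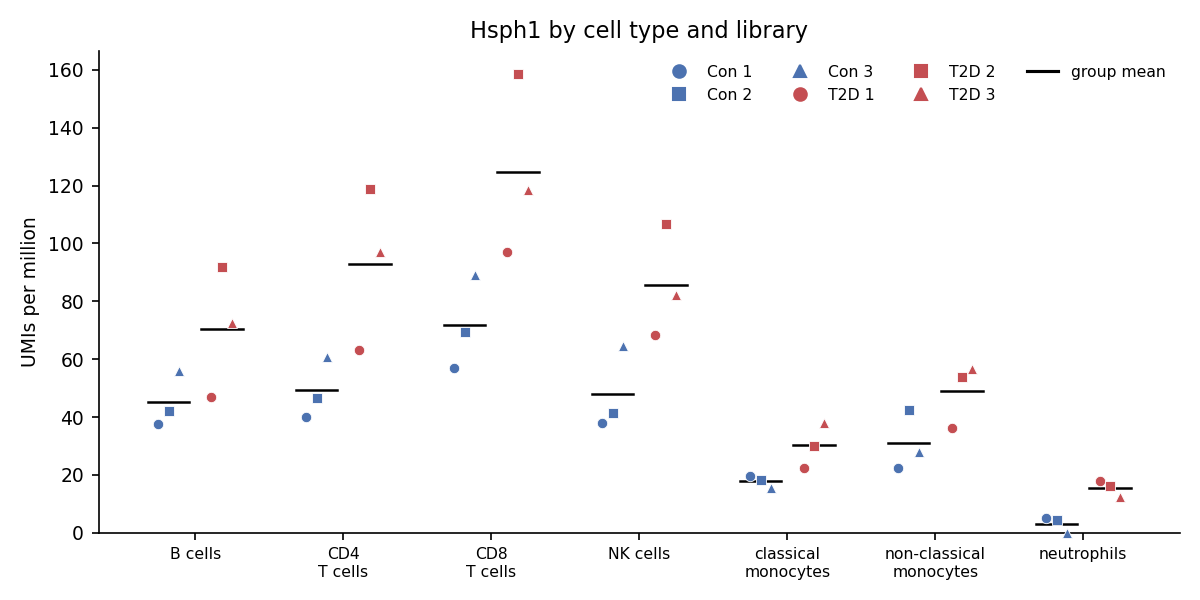
Hsph1 in CPM (vertical axis, from 0) in the 7 tested types. Points are libraries (Con blue, T2D red, shape by library number) and black bars are group means. The T2D libraries lie above all Con libraries in CD4 and CD8 T cells, NK cells, classical monocytes and neutrophils and overlap with them in B cells and non-classical monocytes.

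Hspa8 differed more between libraries than between groups. In B cells it stood at 452, 543 and 575 CPM in Con 1, 2 and 3 and at 474, 657 and 582 in T2D 1, 2 and 3. Both libraries numbered 1 were low and T2D 2 was high. T2D 2 was the highest of the 6 libraries for Hspa8 in 7 of 7 types, and the libraries numbered 1 were the lowest of their own group in 7 of 7. Relative to the mean of the 6 libraries, Con 1 was at 0.79 to 0.87, T2D 1 at 0.777 to 0.961 and T2D 2 at 1.19 to 1.30 over the types. The fitted log2 fold changes were 0.08 to 0.15 and none passed (edgeR adjusted p = 0.462 to 0.905).

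Dnaja1 showed the same library order in part. T2D 1 was the lowest T2D library in 7 of 7 types and Con 1 the lowest Con library in 6 of 7. In B cells the gene stood at 126.6, 161 and 174 CPM in Con and 133, 212 and 213 in T2D, with overlapping groups (log2 0.25 ± 0.25, edgeR adjusted p = 0.715). With the library number as a block Dnaja1 passed in B cells, at 0.24 ± 0.06 (edgeR adjusted p = 0.0370). It was 1 of 9 members called, while 3.79% of all genes were called with the block. The labels do not pair libraries, and same-numbered libraries were seen to deviate together in these same B cell sums. The block is therefore no independent support for the call. Without both libraries numbered 1, Dnaja1 in B cells was at 0.31 ± 0.07 (edgeR adjusted p = 0.0327). In CD8 T cells it stood at 232, 246 and 275 against 256.5, 328 and 311 (0.20 ± 0.09, edgeR adjusted p = 0.260), and without T2D 1 it passed at 0.29 ± 0.08 (adjusted p = 0.0217). Same-numbered libraries deviated together there too, but with the block it did not pass (0.19 ± 0.07, edgeR adjusted p = 0.0927). Nor did it pass in CD8 T cells without both libraries numbered 1 (0.24 ± 0.08, edgeR adjusted p = 0.140). The numbers come from the sample titles, and nothing states what same-numbered libraries share.

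**Figure D3:**
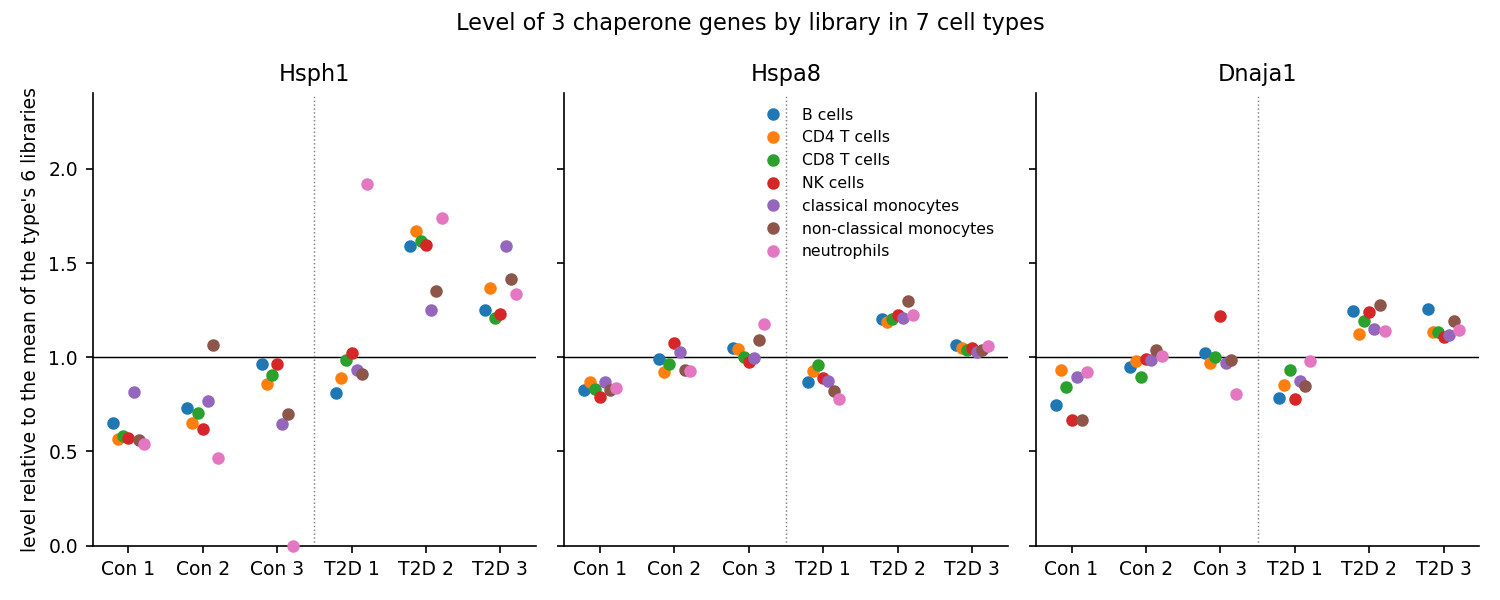
Level of Hsph1, Hspa8 and Dnaja1 in each library divided by the mean of the 6 libraries (vertical axis), with 1 point for each of 7 cell types (colours). The horizontal line marks the mean and the dotted line separates Con from T2D. T2D 2 is above 1 in every type for all 3 genes, and Con 1 and T2D 1 are below 1 in every type for Hspa8 and Dnaja1.

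Among the 10 chaperone genes, 1 call was made over all tested types: Hspa5 in CD4 T cells was lower in T2D. It stood at 808, 746 and 699.5 CPM in Con and at 667, 713.5 and 600.2 in T2D. T2D 2 lay within the Con range, so the groups overlapped. The means were 751 ± 54.5 and 660.3 ± 57.0 (SD, n = 3), and the log2 fold change was −0.26 ± 0.08 (edgeR adjusted p = 0.0300). Thus 1 of 8 tested members was called in CD4 T cells (3 at an unadjusted p under 0.05), where 7.21% of all genes tested were called. That share is at the adjusted threshold. The share of all genes at an unadjusted p under 0.05 was not counted in the 7 tested types or in their differences, here or below. The Hspa5 call was lost without Con 1 (edgeR adjusted p = 0.156), without Con 2 (0.122), without T2D 3 (0.147), without both libraries numbered 1 (0.147) and when cells with a UMI of a regulatory or cytotoxic T cell gene were left out (0.0687). That last step kept 441 of 549, 516 of 655 and 575 of 779 cells in Con 1, 2 and 3. It kept 551 of 956, 548 of 896 and 632 of 1218 in T2D 1, 2 and 3, a smaller part in every T2D library. Calls over all genes in CD4 T cells were 212 without these cells, against 702. The part of this difference in cell mix in the CD4 T cell results, of Hspa5 and of other genes, was not tested.

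The scaling between libraries also bears on this call. The summed ribosomal protein genes of CD4 T cells were 166800 to 169100 CPM in Con and 142200 to 150500 in T2D, with no overlap, and scaling by library totals alone moved the median log2 fold change of all genes by 0.08. Under that scaling, added after seeing the data, Hspa5 was at −0.19 ± 0.07 (edgeR adjusted p = 0.113), and 74.0% of all calls were upward against 48.4% under the main scaling. In CD8 T cells the corresponding shares were 72.8% and 47.4%, and in B cells 63.2% and 53.3%. CPM values in the text are not rescaled, and the median over all genes of the log2 ratio of mean CPM was 0.07 in CD4 T cells. The median mitochondrial share of UMIs also separated the groups, at 5.39% to 5.88% in Con and 4.39% to 5.03% in T2D CD4 T cells, and at 5.56% to 5.99% and 4.61% to 5.29% in CD8 T cells. With cells of at most 10% mitochondrial UMIs, Hspa5 in CD4 T cells was at −0.26 ± 0.08 (edgeR adjusted p = 0.0335). Red cell markers, 4 to 6 of 6 detected, summed to 122 to 1124 CPM in Con and 590 to 2121 in T2D, and the part of the red cell RNA in the result was not tested.

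Separation of all libraries of one group from all of the other is counted on that CPM scale. In CD4 T cells 2 of 8 members (Hsph1, Hspd1) were higher in all T2D libraries, where 20% of all tested genes were, and 1 (Dnajb1) was lower, where 6.56% were. CD8 T cells had 1 of 8 higher (Hsph1) and 0 lower, against 17.0% and 7.18% of all genes, and B cells 0 of 9 in either direction, against 11.9% and 8.34%. NK cells had 1 of 8 higher (Hsph1) and 1 lower (Hspe1), against 6.29% and 6.78%. Classical monocytes had 2 of 9 higher (Hsph1, Hsp90aa1) and 0 lower, against 6.71% and 6.64%, and non-classical monocytes 1 of 8 higher (Hsp90aa1) and 0 lower, against 7.61% and 6.51%. Neutrophils had 2 of 6 higher (Hsp90aa1, Dnajb1) and 1 lower (Hspa5), against 8.98% and 7.92%.

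Dnajb1, a J-domain gene and known HSF1 target, was at 106.8, 99.3 and 104 CPM in Con CD4 T cells and at 89.5, 83.4 and 97.1 in T2D. The groups did not overlap, and the log2 fold change of −0.28 ± 0.09 did not pass (edgeR adjusted p = 0.0546). Hspd1 in the same cells was at 95.5, 101.8 and 100.8 against 107.6, 109.6 and 116.8, for a fitted 0.08 ± 0.08 (edgeR adjusted p = 0.637). In these cells, then, Hsph1 and Dnajb1 had fitted values of opposite sign.

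Hsp90aa1 in CD4 T cells had a difference between groups that itself differed from that of B cells. In B cells it stood at 304, 324 and 344 CPM in Con and 314, 386 and 358 in T2D (log2 0.10 ± 0.08). In CD4 T cells it stood at 367, 408 and 394.5 against 355, 419 and 357 (log2 −0.13 ± 0.08). Neither passed in its own type (edgeR adjusted p = 0.566 and 0.367). The difference of these 2 effects, CD4 minus B, was −0.23 ± 0.07 (adjusted p = 0.0461 by limma on within-library differences). It was 1 call of 46 member-by-type differences, with 3 at an unadjusted p under 0.05, and the share of all genes called was 4.6% in the CD4 comparison. It was lost without Con 1, Con 2, T2D 2 or T2D 3 (limma adjusted p = 0.111 to 0.287). The call rests on the main scaling and was not refitted with library totals alone. Under library totals the median log2 fold change of all genes was 0.08 in CD4 T cells and 0.02 in B cells. Hspa5 in the same comparison was at −0.19 ± 0.06 (limma adjusted p = 0.0991), and without Con 3 it passed at −0.26 ± 0.06 (0.00856). In the other comparisons with B cells, 1.93% (CD8), 0.211% (NK), 0.283% (classical), 0.0283% (non-classical) and 0.463% (neutrophils) of all genes were called and no member was. In the case of Hsph1 the difference from B cells was 0.22 ± 0.11 in CD4 T cells (adjusted p = 0.314) and 0.05 ± 0.28 to 0.22 ± 0.21 in NK cells, CD8 T cells and monocytes.

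**Figure D4:**
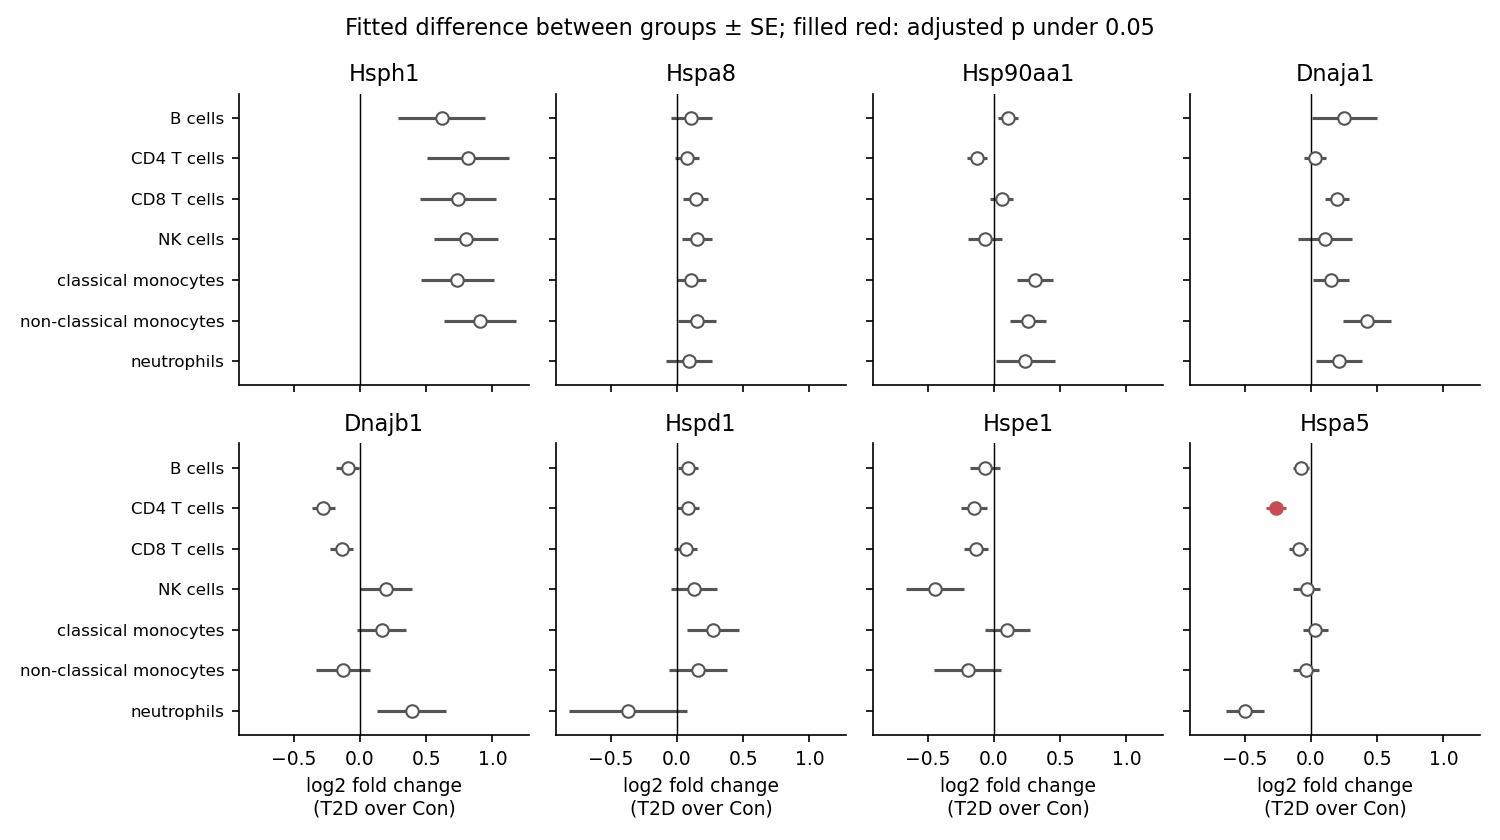
Fitted log2 fold change of T2D over Con (horizontal axis) with its standard error for 8 chaperone genes in 7 cell types (edgeR, 3 libraries per group). Filled red marks an adjusted p under 0.05. Hsph1 lies between 0.62 and 0.90 in the 6 types where it was tested, and Hspa5 in CD4 T cells is the 1 filled point.

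In the other 6 types no member was called by edgeR or by DESeq2. B cells had 0 of 9 members called and 0 at an unadjusted p under 0.05, where 1.52% of all genes were called. CD8 T cells had 0 of 8 (1 unadjusted, Dnaja1), where 4.39% were called, and NK cells 0 of 8 (2 unadjusted), where 0.299% were. Classical monocytes had 0 of 9 (2 unadjusted) against 0.859% of all genes, non-classical monocytes 0 of 8 (2 unadjusted) against 0.712%, and neutrophils 0 of 6 (1 unadjusted) against 3.07%. These shares of all genes are at the adjusted threshold and cannot be set against the unadjusted counts. The median fitted log2 fold change of the tested members was 0.10 in B cells, −0.05 in CD4 T cells, 0.06 in CD8 T cells and 0.12 to 0.16 in the other 4 types, where the median of all genes was between −0.01 and 0.00 in every type. In classical monocytes 9 of 9 tested members had positive fitted values, among them Hsp90aa1, at 165.5, 181 and 128 CPM in Con against 188, 194 and 215 in T2D (0.31 ± 0.13, edgeR adjusted p = 0.459).

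Hspa5 in neutrophils was just outside the threshold. It stood at 1159, 1327 and 955 CPM in Con and 837.5, 891 and 765 in T2D, with no overlap. The means were 1147 ± 186 and 831 ± 63.3, and the log2 fold change was −0.50 ± 0.14 (edgeR adjusted p = 0.0516). It passed without Con 3 (edgeR adjusted p = 0.00794), with a stricter gate (0.0332) and without the cells of highest UMI content (0.0250). It was further from the threshold by DESeq2 (adjusted p = 0.0901), with a looser gate (edgeR adjusted p = 0.198), without both libraries numbered 1 (0.191) and without any of the other 5 libraries, up to 0.453 without Con 2. The summed T cell markers in the neutrophil gate were 226 to 290 CPM in Con and 446 to 505 in T2D, with 7 or 8 of 8 markers detected per library, and their part in the result was not tested.

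In NK cells Hspe1 stood at 78.6, 82.9 and 78.8 CPM in Con and 67.2, 52.6 and 55.3 in T2D. The groups did not overlap, yet the log2 fold change of −0.45 ± 0.22 did not pass (edgeR adjusted p = 0.598). Hspa1b in non-classical monocytes was counted at 0, 0 and 2 UMIs in Con and 1, 20 and 18 in T2D. The counts of T2D 2 and T2D 3 came from more than 1 cell, with at most 4 UMIs in any cell and 29 T2D cells positive, and the gene was below the filter on low counts. Without that filter it was called.

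The wider folding machinery was read from 4 lists, chosen with earlier results of these data known. Of the cytosolic cochaperones and heat shock proteins, St13, an HSP70-binding cochaperone, rose in CD4 T cells from 117 ± 2.05 to 157 ± 18.0 CPM (log2 0.34 ± 0.09, edgeR adjusted p = 0.0160), and Dnajb4, a J-domain gene, fell there from 64.8 ± 4.75 to 53.4 ± 3.17 (−0.36 ± 0.11, adjusted p = 0.0382). In CD8 T cells St13 (0.26 ± 0.08) and Hspa4l, an HSP110 relative (0.50 ± 0.14), rose. Hspa2, an HSP70 gene, fell in B cells (−0.50 ± 0.12). Each of these calls was lost in 4 or 5 of the 6 fits that left out 1 library. No gene of this list was called in NK cells, classical monocytes or neutrophils, with 4 of 25, 2 of 26 and 0 of 18 at an unadjusted p under 0.05 (share of all genes not counted) and none by DESeq2.

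Of the 8 subunits of TRiC, the cytosolic chaperonin that folds actin and tubulin, none was called in any type, nor was any of 9 mitochondrial chaperones and proteases, by edgeR or by DESeq2. At an unadjusted p under 0.05 there were 3 of 54 gene-by-type tests for TRiC and 5 of 50 for the mitochondrial list. Of those 5, 4 were in B cells, where 9 were tested and the median log2 fold change of the list was −0.13. The share of all genes at that unadjusted cut-off was not counted, so these counts are not read as an excess. In neutrophils 0 genes of the mitochondrial list could be tested.

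Of 31 genes of endoplasmic reticulum folding and the unfolded protein response, 5 were called in CD4 T cells (16.1% of 31 tested, against 7.21% of all genes), and they did not move one way. Hsp90b1, the HSP90 of the endoplasmic reticulum, rose from 333.5 ± 3.17 to 445 ± 25.6 CPM (log2 0.34 ± 0.07, edgeR adjusted p = 0.00208), and Atf6, a sensor of the response, from 16.2 ± 2.37 to 31.7 ± 1.16 (0.88 ± 0.17, adjusted p = 0.00118). Both calls held without any 1 library. Pdia3, a disulphide isomerase, rose as well (0.25 ± 0.07), while Herpud1, a part of the degradation machinery (−0.38 ± 0.10), and Xbp1, the transcription factor spliced in the response (−0.39 ± 0.11), fell. Hspa5, the partner of Hsp90b1 in the same compartment, had the opposite sign to it in these cells.

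In B cells Pdia4 rose (0.29 ± 0.07) and Ppp1r15a, which restores translation after stress, fell (−0.43 ± 0.09), 6.45% of 31 tested, against 1.52% of all genes. Non-classical monocytes had Xbp1 called upward (0.60 ± 0.13), 3.45% of 29 tested, against 0.712% of all genes. In neutrophils Ppp1r15a fell from 644 ± 136 to 311.5 ± 41.2 CPM (log2 −1.10 ± 0.17, edgeR adjusted p = 0.000107, held without any 1 library), and Herpud1 fell (−0.68 ± 0.18), 8.33% of 24 tested, against 3.07% of all genes. The call of Herpud1 in CD4 T cells was lost in 2 of the 6 fits that left out 1 library. Those of Pdia3, Pdia4 and Xbp1, of Ppp1r15a in B cells and of Herpud1 in neutrophils were each lost in 4 or 5. CD8 T cells, NK cells and classical monocytes had no call in this list, with 7, 2 and 6 genes at an unadjusted p under 0.05 (share of all genes not counted) and none by DESeq2.

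The highest Hspa5 levels and the widest gap between groups were in antibody-secreting cells, which were outside the planned tests because each library held 7 to 31 of them. Hspa5 stood at 3646, 4379 and 2628 CPM in Con 1, 2 and 3 (30 cells, 1030 UMIs) and at 4990, 6472 and 7070 in T2D 1, 2 and 3 (76 cells, 5067 UMIs). All T2D libraries lay above all Con libraries. The means were 3551 ± 880 and 6177 ± 1071. An exact two-sided permutation test gave p = 0.1, the smallest value that 3 against 3 can give and the one that separate groups always give. In an edgeR fit added after seeing the data, the log2 fold change was 0.75 ± 0.22 (adjusted p = 0.405). That fit called 0 of 2511 genes (0.0%), with 210 (8.36%) at an unadjusted p under 0.05. Among the cytosolic members, Hsp90aa1 was also higher in all T2D libraries (76.0 to 160.6 CPM in Con, 173.7 to 275.5 in T2D). So was Hsph1 (0 to 16.9 against 22.6 to 59.0), on 4 and 33 UMIs. The remaining members overlapped, and 9.84% of all genes tested in these cells were higher in all T2D libraries.

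The other endoplasmic reticulum genes lay mostly the same way in these cells. Of 28 list genes tested there, 24 had positive fitted values, against 48.9% of all genes. In 13 of the 28 all T2D libraries lay above all Con libraries, against 9.84% of all genes, and in 0 they all lay below, against 5.62%. None was called, and 11 of 28 were at an unadjusted p under 0.05, all higher in T2D. Hsp90b1 ranged from 6701 to 8006 CPM in Con and from 10490 to 11750 in T2D. Pdia3 ranged from 507 to 721.5 against 1160 to 1257 (log2 0.96 ± 0.18, edgeR adjusted p = 0.0617), and Calr, a lectin chaperone, from 1322 to 1728 against 2142 to 2635. Hyou1, the HSP110 of the compartment, ranged from 57.0 to 76.1 against 144 to 209 on 19 and 138 UMIs. Xbp1 (1063 to 1852 against 1499 to 1811) and Atf6 (209 to 279 against 219 to 296.5) overlapped.

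The B and T cell markers separated the groups in these cells, and depth and the plasma cell markers did not. The median UMIs per antibody-secreting cell were 2830 in Con 1 and 10544 to 13264 in the other 5 libraries, where Con 2 lay within the T2D range. The summed B cell markers were 1733 to 2652 CPM in Con and 1019 to 1503 in T2D, with 8 of 8 detected in every library. The summed plasma cell markers were 86180 to 125300 in Con and 50350 to 118600 in T2D, with 6 or 7 of 7 detected and overlapping groups. The summed T cell markers were 118 to 152 in Con, with 3 to 5 of 8 detected, and 161 to 189 in T2D, with 6 to 8. The part of these in the Hspa5 difference was not tested.

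**Figure D5:**
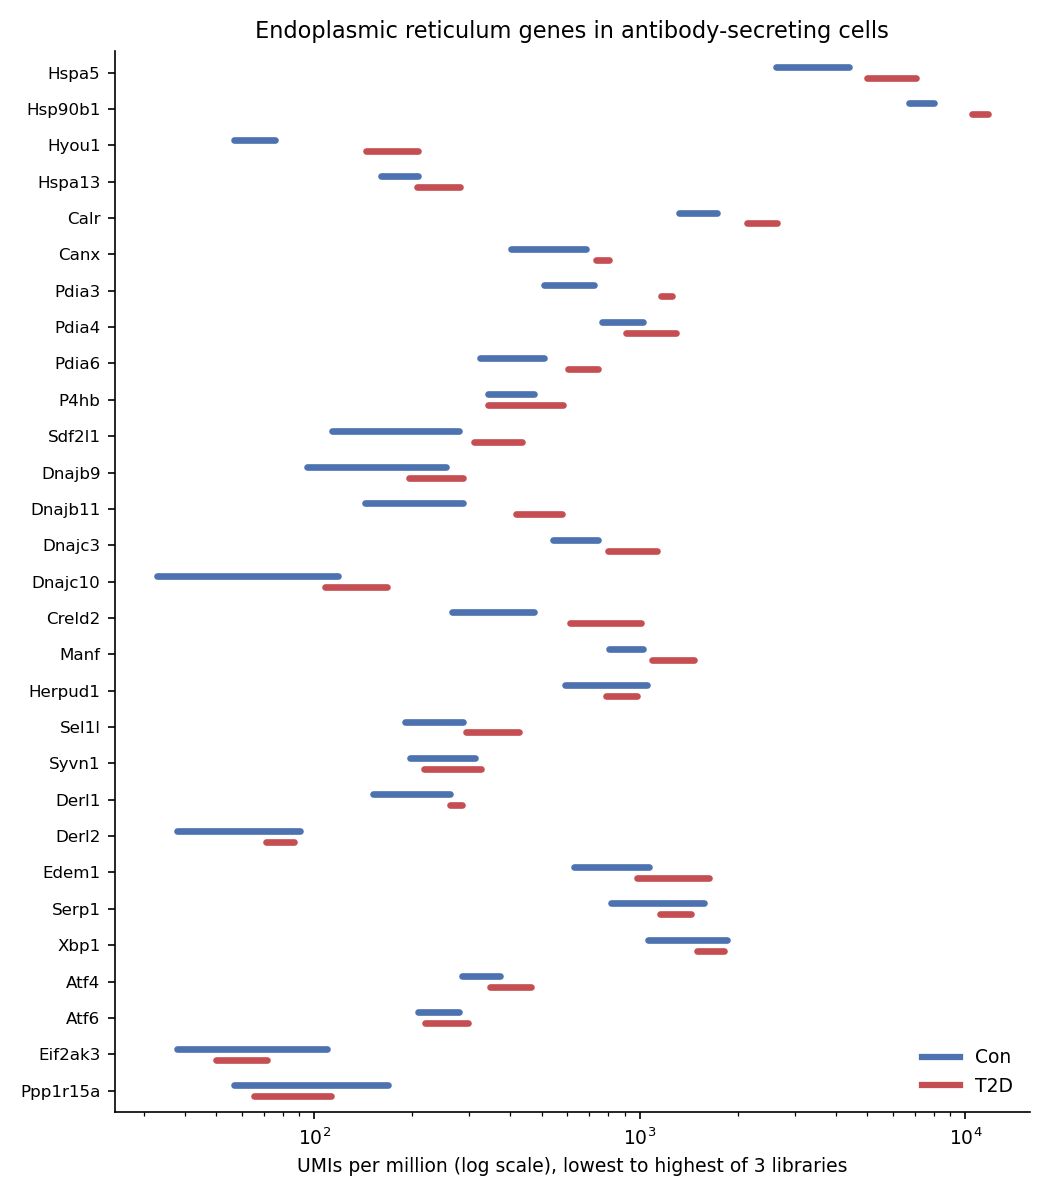
Range over 3 libraries, in CPM on a log axis, of Hspa5 and 28 endoplasmic reticulum genes in antibody-secreting cells (Con blue, T2D red). The bars of Hspa5, Hsp90b1, Hyou1, Calr and Pdia3 are separate with T2D higher, and those of Xbp1 and Atf6 overlap.

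Basophils, with 11 to 35 cells per library, were the other small type with a wide gap. Dnajb1 stood at 740, 846 and 562 CPM in Con and 458, 536.5 and 149 in T2D, on 154 and 50 UMIs. The groups did not overlap, with means of 716 ± 144 and 381 ± 205. The exact two-sided permutation test gave p = 0.1, which separate groups of this size always give, so it adds nothing to the separation. Hspe1 was also separate there, at 0 to 13.5 CPM in Con and 23.3 to 28.6 in T2D, on 1 and 4 UMIs. The remaining members overlapped, and the share of all genes that separate in basophils was not counted. Hspa5 in basophils overlapped, at 2385 ± 690 and 2394 ± 1077.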

How the data were processed

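Peripheral blood mononuclear cells of 6 mouse libraries were profiled with the BD Rhapsody whole-transcriptome assay, which reads the 3′ end of transcripts, per the labels' protocols. Build mm10 and the tools CASAVA 1.8, Seurat and UMI-tools appear, with no role, in the submitters' processing notes; no source used here names an aligner or annotation. Each library has a deposited matrix of whole-number UMI counts, not normalized, by gene and barcode. All other values were computed here from those counts. The depth was 23574052 to 32321855 UMIs per library, and no 2 libraries agreed within sampling noise (lowest chi-square over degrees of freedom 9.43).

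A minimum of 200 genes and a maximum of 20% mitochondrial UMIs were required of a barcode. A cell was assigned to the lineage with the most marker genes detected, at least 2 and leading every other lineage by at least 2; antibody-secreting cells needed at least 3 plasma cell genes. T cells were split by Cd4 against Cd8a and Cd8b1 UMIs. No doublet caller was run; the lead rule, and an alternative without cells above the 95th percentile of UMIs, stand in for it. UMIs were summed per type and library and tested in types with at least 30 cells in every library: edgeR 4.0.16 (robust quasi-likelihood, TMM, filterByExpr), Benjamini-Hochberg over all genes of the type, threshold 0.05. The eosinophil test that had been planned was not run. Differences from B cells used limma 3.58.1 on within-library log2 CPM (prior count 2), and DESeq2 1.42.0 was an alternative. Both tests were tried on simulated counts. Identical replicate numbers in the 2 groups were checked for pairing: same-numbered libraries deviated together (correlations over 0.1 in every pair) in B cells (0.186 to 0.233) and CD8 T cells (0.140 to 0.227) only. Text names all 10 members, and of the other lists the genes called, at most 8 per type. For likeness, genes with a mean of at least 20 CPM were searched and the first 3 per member kept. Of the cytosolic cochaperone list, 1 gene is not reported here. Members, lists and tests were chosen with earlier results of these data known. Sequences come from RefSeq (GRCm38.p6), and identifiers were matched to GENCODE M21 annotation of GRCm38 (31107 of 31253). Software: Python 3.11.15 and R 4.3.3.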

Additional observations from a re-analysis of the deposited data

Results flagged for a closer look

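The difference between groups of Hsp90aa1, an HSP90 gene, was not the same in CD4 T cells as in B cells. The difference of the 2 log2 fold changes, CD4 minus B, was −0.232 and passed the test of that difference, with fitted values of 0.10 in B cells and −0.13 in CD4 T cells. The call did not hold without Con 1, Con 2, T2D 2 or T2D 3, and it was not refitted with library totals alone.

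Hspa5 in antibody-secreting cells, which lay outside the planned tests for lack of cells, reached a mean of 6177 CPM in the T2D libraries, above the 3551 CPM of the Con libraries. The value rests on 76 T2D and 30 Con cells, and 3 libraries against 3 cannot give an exact p below 0.1.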

How the results depend on the processing

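Of 1384 values recomputed under the alternatives, 1360 kept their side of the threshold, 14 newly passed, 10 no longer did and 0 called values reversed; 69 values called in neither fit changed sign. The number of called members stayed at 0 in NK cells and classical monocytes under every alternative run. In B cells (0 called) it was 1 with the replicate block and 1 without both libraries numbered 1. In CD4 T cells (1 called) it was 2 with RLE scaling, 3 with the replicate block (Hspa5, Dnajb1 and Hsph1, the last at adjusted p = 3.13e-05), 0 with library totals only, 0 with cells of mixed state left out, and 0 to 2 when 1 library was left out. Other types had 0: CD8 T cells gave 1 with no filter on low counts, non-classical monocytes 1 with no filter, and neutrophils 1 with the stricter gate and 1 without the cells of highest UMI content; leaving out 1 library gave 0 to 1 in each of these. Of the differences from B cells (1 called), the replicate block gave 2 (Hsp90aa1, and Hspa5 in CD4 T cells at −0.19, limma adjusted p = 0.00516) and leaving out 1 library 0 to 2. The causes were not tested.

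For types other than B and CD8 T cells the same-number correlations were lower (−0.034 to 0.116 in CD4 T cells), so the numbers are not taken to pair those libraries. In B and CD8 T cells the correlations came from the same sums as the fits, so they are no independent support for calls with the block. Over all genes, the calls ranged over the alternatives from 42 to 582 in B cells (180 in the main fit, 448 with the block, 210 with DESeq2), 212 to 887 in CD4 T cells (702, DESeq2 461), 16 to 665 in CD8 T cells (458), 11 to 43 in NK cells (20), 32 to 106 in classical monocytes (65), 15 to 94 in non-classical monocytes (51) and 53 to 207 in neutrophils (150). Depth limits Hspa1a and Hspa1b everywhere, and Hsph1 and Hspe1 in neutrophils, to small UMI counts. The library-totals scaling and the fits without both libraries numbered 1 were chosen after seeing the data. Eosinophils gave no value.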

Other observations

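Immediate early genes, which respond within minutes to signals or handling and were listed beside the chaperones, were called lower in the T2D libraries of the lymphocytes. CD4 T cells had 5 of 19 tested called, all lower, where 7.21% of all genes were called: Nr4a3, an orphan nuclear receptor, went from 115 ± 14.4 to 24.0 ± 6.80 CPM (log2 −2.37 ± 0.18), Junb, an AP-1 subunit, from 1701 ± 155.5 to 1189 ± 116, and Ier2, Ier5 and Klf6 fell by less. In CD8 T cells 5 of 20 were called lower (Nr4a3, Ier2, Zfp36, Junb, Ier5; 4.39% of all genes), in B cells 3 of 20 (Junb, Nr4a3, Btg2; 1.52%), in NK cells 3 of 18 (Nfkbia, Junb, Nr4a1; 0.299%) and in neutrophils 4 of 19 (Nfkbia, Ier3, Nr4a1, Dusp2; 3.07%). Junb was called in all 4 of the lymphocyte types, and those calls held without any 1 library. Of the 6 fits that left out 1 library, Klf6 in CD4 T cells was lost in 4 and Ier5 in CD8 T cells in 3. In B cells Btg2 was lost in 3 and Nr4a3 in 2. Nr4a1 in NK cells and Dusp2 in neutrophils were each lost in 1. The other calls named in these 5 types held.

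Classical monocytes differed, with 4 of 19 called higher and 1 lower, where 0.859% of all genes were called. Fos rose from 2384 ± 184 to 3863 ± 76.2 CPM (log2 0.69 ± 0.09), Btg2, Atf3 and Dusp1 also rose, and Nr4a1 fell from 2851 ± 215 to 2067 ± 194. Of these, the call of Fos held without any 1 library. In non-classical monocytes Ier2 was called lower, 1 of 18, where 0.712% of all genes were called, and the call was lost in 4 of the 6 fits that left out 1 library. Calls are by edgeR at an adjusted p of 0.05. The differences between types, and the part of these genes in the chaperone values, were not tested.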
